A study of Mus musculus with 36 samples.

Results

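Macrophage identity and activation genes were measured in embryonic mouse intestines and in embryonic fibroblasts that carry altered *Casp8*. The 10 genes were picked by name from the 52636 listed by the authors. *Adgre1*, *Csf1r*, *Cd68* and *Lyz2* mark macrophages by what the cells are. *Marco*, *Msr1*, *Cd14*, *Clec4n*, *Clec4e* and *Acod1* rise when macrophages are activated. Macrophages are phagocytes that live in every tissue and that reach the fetal gut before birth. They carry receptors for microbes, for modified lipids and for dead cells, and several of these receptors are made in larger amounts after a danger signal. Monocytes and neutrophils share many of the same genes, so no gene among the 10 belongs to macrophages alone.

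The libraries were made from whole tissue or whole cultures, 3 per group, and no library was treated. The intestines came from E18.5 embryos, and the mouse embryonic fibroblasts (MEFs) have no day on their labels. In the D387A set, caspase-8 has the cleavage-site mutation D387A, written *Casp8* 1xDA/1xDA. In the C362A set, caspase-8 has the catalytic mutation C362A, written *Casp8* C362A/C362A. Each set has its own *Mlkl*-/- controls, which are wild type for *Casp8*, and no wild-type library exists in any set.

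The first mutant group of the D387A set was *Casp8* 1xDA/1xDA with *Mlkl* intact, called D387A alone. Removing *Cflar* and *Mlkl* gave *Casp8* 1xDA/1xDA *Cflar*-/- *Mlkl*-/-, called D387A *Cflar Mlkl*. Further loss of *Casp1* gave D387A *Cflar Mlkl Casp1*. Onto that genotype was added the loss of either *Ifnar1* or *Fadd*, giving D387A *Cflar Mlkl Casp1 Ifnar1* and D387A *Cflar Mlkl Casp1 Fadd*. The C362A set held *Casp8* C362A/C362A *Mlkl*-/-, called C362A *Mlkl*, and the same genotype lacking either *Casp1* or *Cflar*, called C362A *Mlkl Casp1* and C362A *Cflar Mlkl*. The MEFs were *Mlkl*-/- or D387A *Cflar Mlkl*.

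Several limits hold for every comparison below. The alleles are carried by the whole embryo, so macrophages and the cells around them were mutant together. The *Cflar* and *Mlkl* deletions of the D387A line go back to a single founder, and the C362A line carries a different *Cflar* deletion. There is no *Mlkl Casp1* control, so the groups lacking *Casp1* differ from their controls by that loss as well. D387A alone keeps *Mlkl*, which its controls lack, so that comparison changes *Casp8* and *Mlkl* together. The sample titles carry prefixes that change with genotype in the D387A set, and genotype and prefix cannot be told apart. Which *Mlkl*-/- intestines belong to which set was read from the titles. Bulk RNA does not separate fewer cells from less RNA per cell, and that holds for every level in this report.

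Reads on genes ranged from 17943524 to 27721024 in the D387A set, from 21757868 to 31052238 in the C362A set and from 20927014 to 32307629 in the MEFs. The tissues were what their labels say. *Epcam*, an epithelial gene, had an RPKM (reads scaled to gene length and library size) of at least 472 in every intestine and of at most 1.54 in every MEF library. The summed RPKM of 8 fibroblast genes, with *Col1a1* the most abundant, was 4657, 4337 and 4883 in the *Mlkl*-/- MEFs and lay between 246 and 1052 in the intestines.

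The targeted genes matched the labels where loss removes the reads. *Casp1* had an RPKM of at most 0.142 in the 12 intestines that lack it and of at least 28.4 in the others. *Fadd* stood at 0.204, 0.259 and 0.169 in the *Fadd*-deficient intestines and at 6.53 or more elsewhere in the gut. *Ifnar1* stood at 9.70, 8.50 and 8.79 in the *Ifnar1*-deficient intestines, below the 19.5 or more of every other intestine. The totals for *Cflar* and *Mlkl* keep reads after deletion and do not check the labels.

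The embryos of one group split. The third D387A *Cflar Mlkl Casp1* intestine had a *Cd68* RPKM of 24.8, where the other 2 had 7.92 and 6.65. Its *Csf1r*, *Acod1*, *Cd14* and *Msr1* were also the highest of the group. By *Mlkl* it is the other 2 that stood apart from related genotypes. Their *Mlkl* RPKM was 3.13 and 3.72, near the 2.39 to 2.67 of the controls, whereas the third had 23.0, near the 22.9 to 27.9 of the embryos that also lack *Ifnar1* and above the 11.1 to 13.4 of D387A *Cflar Mlkl*. Which of the 3 is typical of the genotype was not tested. Values with and without the third embryo are given wherever a call changed or a called value moved by more than 1.5 times.

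*Adgre1* encodes F4/80, an adhesion receptor on the surface of most mouse macrophages. The gene lies on chromosome 17 of mouse build GRCm38, from 57358691 to 57483527. Its RPKM was 2.10, 2.49 and 2.62 in the D387A set's controls and 4.35, 4.39 and 5.94 in D387A *Cflar Mlkl* intestines. Every mutant embryo lay above every control, and the means were 2.40 ± 0.273 and 4.89 ± 0.903 (mean ± SD, n = 3). The log2 fold change was 1.03 with a standard error of 0.155 (edgeR quasi-likelihood test, adjusted p = 1.96e-05 after Benjamini-Hochberg adjustment). That call sat at the threshold of 1, because the value was 0.94 without the first control and 0.86 without the third mutant. D387A alone, at 2.25, 2.30 and 2.95, overlapped the controls.

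Further losses in the D387A set moved *Adgre1* by less than the threshold. The RPKM was 5.49, 4.53 and 5.16 in D387A *Cflar Mlkl Casp1* intestines, 4.70, 5.39 and 5.79 with *Ifnar1* also lost, and 2.67, 3.46 and 2.87 with *Fadd* lost instead. The *Ifnar1*-deficient and *Ifnar1*-intact groups overlapped, and the *Fadd*-deficient embryos lay above the controls and below both. Against controls the log2 fold changes were 1.07, 1.14 and 0.32 (adjusted p = 0.000176, 1.69e-05 and 0.176, the same edgeR test). The first of these fell to 0.98 without the first control. Loss of *Casp1* moved *Adgre1* by 0.05 and loss of *Fadd* by -0.75 (adjusted p = 0.82 and 0.00257, the same edgeR test), neither of them called. In the C362A set the RPKM was 2.61, 2.61 and 2.58 in controls, 4.59, 4.51 and 5.25 in C362A *Mlkl*, 4.15, 4.86 and 4.71 in C362A *Cflar Mlkl* and 2.74, 2.87 and 2.76 in C362A *Mlkl Casp1*. The mutant groups that keep *Casp1* lay above the rest with no overlap, and their *Cflar*-intact and *Cflar*-deficient embryos overlapped each other. The gains of 0.88 and 0.82 (adjusted p = 5.62e-05 and 8.1e-05, the same edgeR test) were short of the threshold of 1. Loss of *Casp1* from C362A *Mlkl* lowered *Adgre1* by 0.78 (adjusted p = 0.000325, the same edgeR test), and the 2 sets differed in the effect of that loss by 0.85 (adjusted p = 0.00409, not called). MEFs had 2.92, 1.82 and 1.53 as controls and 2.04, 3.35 and 3.16 as mutants, which overlapped.

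*Lyz2* encodes lysozyme M, a secreted enzyme of macrophages, monocytes and neutrophils, and lies on chromosome 10 from 117277331 to 117282321. Its RPKM was 21.6, 21.2 and 19.8 in the D387A set's controls, 68.9, 64.5 and 89.3 in D387A *Cflar Mlkl* and 68.7, 60.6 and 73.6 in D387A *Cflar Mlkl Casp1*. With *Ifnar1* lost it was 98.6, 152 and 123, and with *Fadd* lost it was 23.9, 21.7 and 20.2. The *Fadd*-deficient embryos overlapped the controls, the *Ifnar1*-deficient embryos stood above every other group, and the remaining mutant groups overlapped each other. The log2 fold changes against controls were 1.83, 1.70 and 2.58 in the first 3 of these mutant groups (adjusted p = 1.19e-08, 1.93e-06 and 1.16e-08, the same edgeR test). Loss of *Ifnar1* moved *Lyz2* by 0.88 (adjusted p = 0.000563, not called), and by 1.02 without the first *Ifnar1*-deficient embryo, which then passed. Loss of *Fadd* lowered it by 1.62 (adjusted p = 4e-06, the same edgeR test).

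In C362A *Mlkl* intestines *Lyz2* stood at 152, 174 and 139.6, against 17.0, 20.3 and 24.4 in controls, 117, 139 and 81.9 in C362A *Cflar Mlkl* and 31.9, 35.2 and 36.8 in C362A *Mlkl Casp1*. No group overlapped another. The gains over controls were 2.92, 2.46 and 0.75 (adjusted p = 2.45e-08, 8.94e-08 and 0.00526, the same edgeR test), the last of them not called. Loss of *Casp1* lowered *Lyz2* by 2.16 in the C362A set and by 0.13 in the D387A set (adjusted p = 1.14e-06 and 0.455), and the interaction test gave a difference of 2.06 (adjusted p = 1.32e-05). In MEFs *Lyz2* rose from 26.2, 30.6 and 24.0 to 89.4, 118 and 114. Mutant and control MEFs did not overlap, at a log2 fold change of 1.99 (adjusted p = 0.00122, the same edgeR test). *Lyz2* shares 195 of its 1267 windows of 50 bases (15.4%) with its neighbor *Lyz1*, a lysozyme of Paneth cells. *Lyz1* rose by 2.56 in D387A *Cflar Mlkl*, by 1.25 in C362A *Mlkl* and by 2.71 in C362A *Cflar Mlkl* intestines. Only uniquely mapped reads were kept, so a read that matches both genes equally counts for neither. Whether other reads of *Lyz1* add to those of *Lyz2* was not tested. *Lyz1* was not tested in MEFs, where its controls had 0 reads.

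*Cd68* encodes a lysosomal glycoprotein of macrophages and lies on chromosome 11 from 69664213 to 69666153. Its RPKM was 8.06, 8.36 and 7.56 in the D387A set's controls and 17.4, 11.6 and 16.2 in D387A *Cflar Mlkl* intestines. All 3 mutants lay above the controls, yet the log2 fold change of 0.92 (adjusted p = 0.0257, the same edgeR test) was not called, and it was 1.07 and called without the second mutant. With *Casp1* also lost the embryos split, at 7.92, 6.65 and 24.8. That group's change from controls was 0.71 (adjusted p = 0.146), or 1.03 and called without its second embryo, or -0.13 without the third. Adding loss of *Ifnar1* gave 21.7, 22.7 and 27.0, all far above the controls (log2 fold change 1.58, adjusted p = 0.000975, the same edgeR test). Without the third D387A *Cflar Mlkl Casp1* embryo, loss of *Casp1* was called at -1.05 (adjusted p = 4.1e-05) and loss of *Ifnar1* at 1.71 (adjusted p = 4.34e-07). With it they were -0.20 and 0.86 (adjusted p = 0.635 and 0.0523), and limma-voom called the latter at 1.13. D387A *Cflar Mlkl Casp1 Fadd* intestines, at 10.2, 10.5 and 13.1, lay slightly above the controls and were not called.

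In C362A *Mlkl* intestines *Cd68* stood at 37.5, 38.3 and 34.6, against 8.16, 8.38 and 11 in controls. Without *Cflar* it was 15.7, 22.6 and 27.0, and without *Casp1* it was 18, 17.9 and 15.4. Those last groups overlapped each other, and all 3 mutant groups were clear of the controls. The gains were 2.00, 1.25 and 0.90 in that order (adjusted p = 5.55e-07, 3.95e-05 and 0.0015, the same edgeR test), and the last was called, at 1.03, only without the third control. With *Casp1* lost, *Cd68* fell by 1.10 (adjusted p = 0.000265). The MEFs moved from 9.14, 7.02 and 6.86 to 9.43, 11.4 and 11.6, with no overlap and no call (log2 fold change 0.49, adjusted p = 0.619).

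*Csf1r* encodes the receptor for macrophage colony-stimulating factor, on which most macrophages depend, and lies on chromosome 18 from 61100598 to 61132149. It went the other way. Its RPKM was 56.6, 56.8 and 52.9 in the D387A set's controls and 14, 13.2 and 19.6 in D387A *Cflar Mlkl* intestines. Every mutant was far below every control, with a log2 fold change of -1.83 and a standard error of 0.188 (adjusted p = 2.46e-07, the same edgeR test). D387A alone overlapped the controls, at 61.3, 54.6 and 58.7. The RPKM was 37.3, 38.0 and 68.2 after loss of *Casp1*, 59.0, 58.9 and 67.5 with *Ifnar1* also lost, and 71.9, 67.6 and 70.7 with *Fadd* lost instead. The first of those groups straddled the controls and the others lay above them, and none was called against controls. Loss of *Casp1* raised *Csf1r* by 1.61 (adjusted p = 2.45e-06, the same edgeR test).

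In the C362A set *Csf1r* was called lower only where *Cflar* was missing. The RPKM was 51.3, 57.7 and 61.4 in controls, 47.9, 40.9 and 49.8 in C362A *Mlkl*, 70.8, 75.2 and 72.2 in C362A *Mlkl Casp1* and 12.4, 17.2 and 23.1 in C362A *Cflar Mlkl*. The last group lay far below all others, and no group overlapped another. Its change from controls was -1.69, where that of C362A *Mlkl* was -0.30 (adjusted p = 0.196), and loss of *Cflar* from C362A *Mlkl* lowered the gene by 1.39 (adjusted p = 2.64e-06 and 0.000251, the same edgeR test). The MEFs had little of it, 3.27, 2.02 and 2.06 as controls and 2.47, 2.86 and 3.15 as mutants. Of the 5776 windows of 50 bases in *Csf1r*, 824 (14.3%) also occur in *Hmgxb3*, which overlaps its end on the other strand. *Hmgxb3* itself moved by -0.34 in D387A *Cflar Mlkl* and by -0.78 in C362A *Cflar Mlkl* intestines and was not called.

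**Figure D1:**
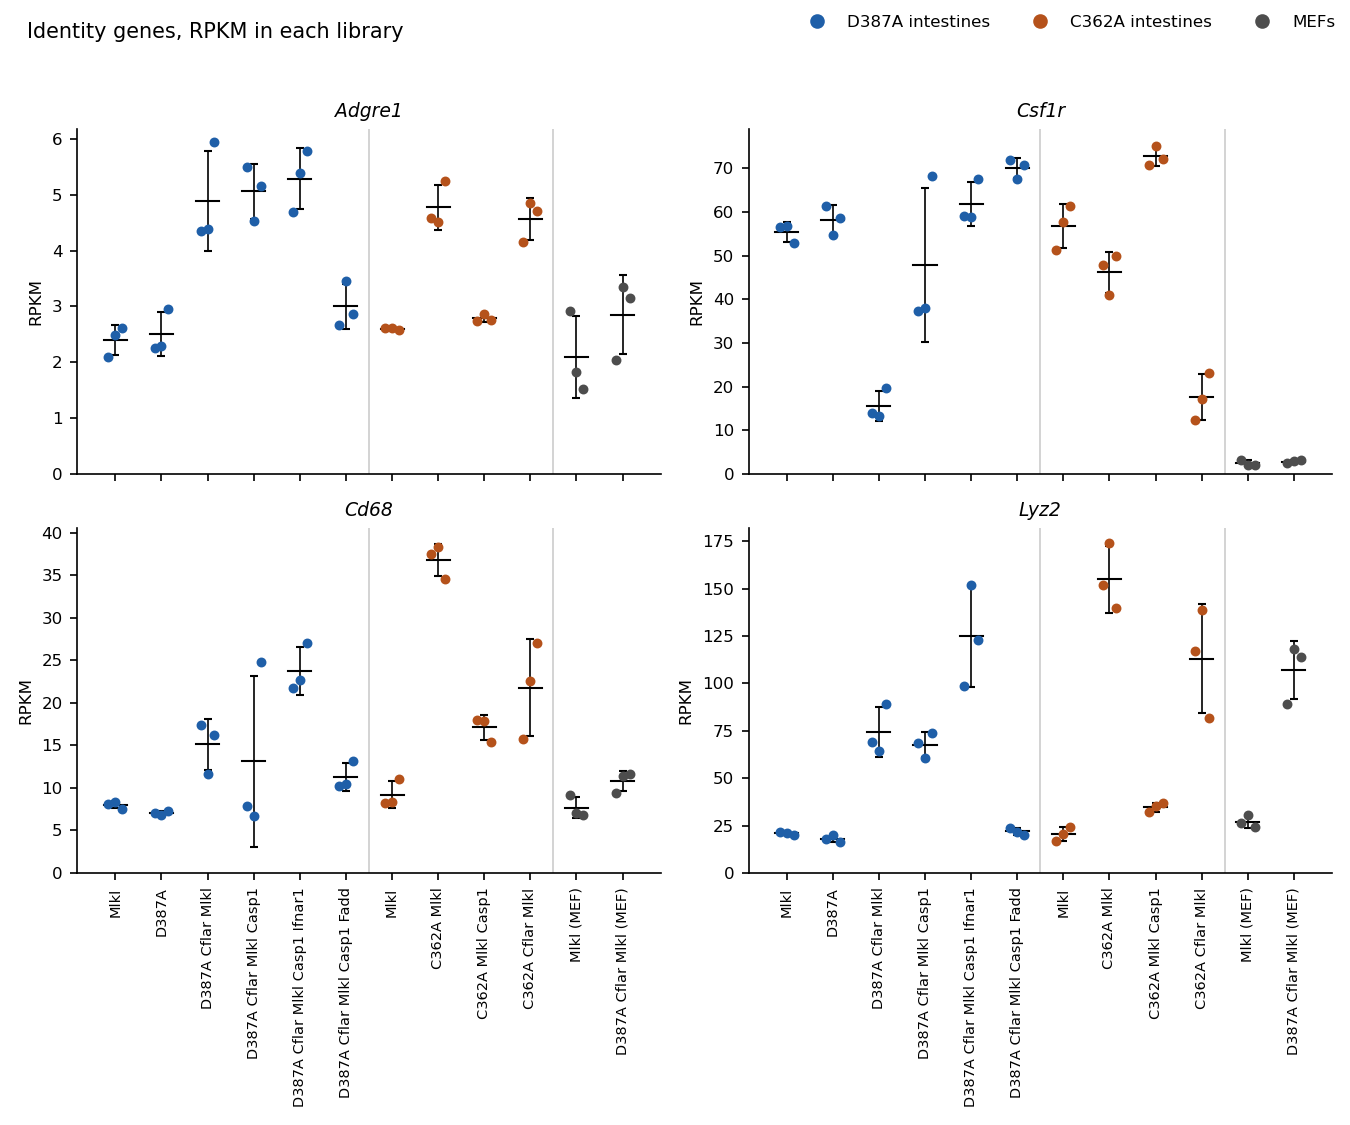
RPKM of the identity genes *Adgre1*, *Csf1r*, *Cd68* and *Lyz2* in every library, by genotype. Each point is 1 library and bars mark group means.

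*Marco* encodes a class A scavenger receptor that binds bacteria, and lies on chromosome 1 from 120474538 to 120505024. The D387A set's controls had 0, 8 and 0 reads of *Marco*, so a fold change against them rests on the second control. Its RPKM was 12.1, 9.87 and 9.86 in D387A *Cflar Mlkl*, 6.12, 5.58 and 4.73 with *Casp1* also lost, and 2.45, 2.78 and 2.83 with *Ifnar1* lost as well. The embryos lacking *Fadd* had 0.115, 0.206 and 0.114, within the span of the controls, and D387A alone had 0.0318, 0.108 and 0.0806. The 3 high groups stepped down with each further loss and did not overlap. The fitted log2 fold changes were 7.17, 6.22 and 5.19 (adjusted p = 2.93e-10, 1.85e-07 and 3.33e-07, the same edgeR test). Without the second control the controls have 0 reads, and the fits then gave 11.85, 10.89 and 9.86, and 5.67 (adjusted p = 0.00226) for D387A *Cflar Mlkl Casp1 Fadd*. Those fitted values depend on the prior count and are no bound.

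Loss of *Fadd* lowered *Marco* by 5.21 and loss of *Ifnar1* lowered it by 1.03 (adjusted p = 4.39e-07 and 0.00764, the same edgeR test). The latter was near the threshold and dropped to -0.94 without the first D387A *Cflar Mlkl Casp1* embryo and to -0.96 without the first *Ifnar1*-deficient one. Loss of *Casp1* gave -0.95 (adjusted p = 0.00443), short of the threshold, and passed it at -1.0 and -1.01 without the second or the third D387A *Cflar Mlkl* embryo and at -1.04 without the first D387A *Cflar Mlkl Casp1* embryo.

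*Marco* rose less in the C362A set. The RPKM was 0.115, 0.0894 and 0.0906 in controls, 0.282, 0.296 and 0.451 in C362A *Mlkl*, 0.441, 0.269 and 0.437 in C362A *Cflar Mlkl* and 0.167, 0.259 and 0.276 in C362A *Mlkl Casp1*. Every mutant lay above every control, and the *Cflar*-intact and *Cflar*-deficient groups overlapped. The log2 fold changes were 1.78, 1.93 and 1.23 (adjusted p = 0.00202, 0.000778 and 0.0331, the same edgeR test). The last was lost at 1.32, 1.14 and 1.17 without the first, the second or the third control, at 1.13 and 1.07 without the second or the third mutant, and by DESeq2. The interaction test between D387A *Cflar Mlkl* and C362A *Mlkl*, each against its controls, gave 5.40 (adjusted p = 2.93e-05). In MEFs the reads went from 0, 1 and 3 to an RPKM of 1.37, 1.47 and 0.783. All mutant cultures were above all controls, with a fitted change of 5.44 (adjusted p = 0.0314, the same edgeR test). That call needed nearly every library, and limma-voom did not make it (5.45, adjusted p = 0.0678). It was lost without the first control (4.80, adjusted p = 0.0866) or the second (5.21, adjusted p = 0.262). It was lost also without the first, the second or the third mutant (5.34, 5.27 and 5.68, adjusted p = 0.0667, 0.172 and 0.0551), and stood at 6.81 without the third control.

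*Msr1* encodes another class A scavenger receptor, which binds modified lipoproteins, and lies on chromosome 8 from 39581685 to 39642673. Its RPKM was 1.70, 1.67 and 1.60 in the D387A set's controls, 7.35, 5.03 and 7.82 in D387A *Cflar Mlkl* and 2.83, 2.93 and 5.11 with *Casp1* also lost. It was 3.70, 4.29 and 4.18 after further loss of *Ifnar1* and 1.62, 1.75 and 1.98 after loss of *Fadd*. The *Fadd*-deficient embryos overlapped the controls and the other mutants stood above them. The log2 fold changes of the 3 raised groups were 2.03, 1.13 and 1.29 (adjusted p = 2.04e-07, 0.00115 and 7.25e-05, the same edgeR test), and the middle one fell to 0.80 without the third D387A *Cflar Mlkl Casp1* embryo. Loss of *Casp1* gave -0.90, and -1.07 without the second D387A *Cflar Mlkl* embryo or -1.23 without the third D387A *Cflar Mlkl Casp1* embryo. Loss of *Fadd* gave -1.02 (adjusted p = 0.00239), which moved to -0.69 without the same D387A *Cflar Mlkl Casp1* embryo and to -0.96 without the first *Fadd*-deficient one. It was not called by limma-voom (-0.96, adjusted p = 0.006) or by edgeR with replicate number as a block (-1.0). Among C362A-set intestines *Msr1* went from 1.79, 1.85 and 2.43 to 6.45, 7.14 and 7.72 in C362A *Mlkl* and to 7.41, 7.47 and 5.99 in C362A *Cflar Mlkl*. Those groups overlapped each other and were clear of the controls (log2 fold changes 1.82 and 1.79, adjusted p = 2.58e-06 and 2.27e-06). C362A *Mlkl Casp1* embryos had 1.98, 3.34 and 2.42, overlapping the controls, and loss of *Casp1* lowered the gene by 1.46 (adjusted p = 4.39e-05). The MEFs, at 1.60, 1.82 and 1.85 and then 1.71, 2.03 and 2.35, overlapped.

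*Cd14* encodes the co-receptor that hands lipopolysaccharide to Toll-like receptor 4, and lies on chromosome 18 from 36725067 to 36726798. Its RPKM was 2.05, 1.57 and 1.81 in the D387A set's controls, 14.1, 14.8 and 15.7 in D387A *Cflar Mlkl* and 2.86, 2.69 and 6.55 with *Casp1* also lost. It was 8.72, 11.1 and 9.82 with *Ifnar1* lost as well and 2.73, 3.97 and 1.70 with *Fadd* lost instead. Loss of *Casp1* took *Cd14* close to the controls in 2 of the 3 embryos, further loss of *Ifnar1* came with a higher level, and the *Fadd*-deficient embryos overlapped the controls. The log2 fold changes against controls were 3.03, 1.15 and 2.44 for the first 3 mutant groups (adjusted p = 1.84e-07, 0.0145 and 7.31e-06, the same edgeR test). The middle call was lost without the second control (1.05, adjusted p = 0.0602) and without the third D387A *Cflar Mlkl Casp1* embryo (0.61, adjusted p = 0.0982). With only the compared groups in the fit it was lost too (1.15, adjusted p = 0.0771 by edgeR). Loss of *Casp1* lowered *Cd14* by 1.88 and loss of *Ifnar1* raised it by 1.30 (adjusted p = 3.37e-05 and 0.00304, the same edgeR test), and without the third D387A *Cflar Mlkl Casp1* embryo these became -2.42 and 1.83. The rise with *Ifnar1* loss was not called with only the compared groups in the fit (adjusted p = 0.0516, the same edgeR test). C362A-set intestines took *Cd14* from 1.47, 1.93 and 1.53 to a mean of 20.4 ± 2.11 (mean ± SD, n = 3) in C362A *Mlkl*, to 24.5, 15.1 and 13.7 in C362A *Cflar Mlkl* and to 4.24, 3.76 and 3.41 in C362A *Mlkl Casp1*. The first pair of groups overlapped and the third lay between them and the controls. Their log2 fold changes were 3.63, 3.43 and 1.21 (adjusted p = 1.72e-08, 2.29e-08 and 0.000944, the same edgeR test), and loss of *Casp1* lowered the gene by 2.42 (adjusted p = 1.35e-06). MEFs stayed at 1.97, 1.61 and 2.09 and then 2.90, 1.80 and 2.03, which overlap.

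*Clec4n* encodes Dectin-2, a C-type lectin that binds fungal mannans, and lies on chromosome 6 from 123229843 to 123247021. Its RPKM was 2.27, 2.33 and 2.17 in the D387A set's controls, 24.7, 18.2 and 31.5 in D387A *Cflar Mlkl* and 9.30, 7.74 and 11.4 with *Casp1* also lost. It was 11.2, 18.1 and 17.3 with *Ifnar1* lost as well and 3.49, 3.43 and 3.47 with *Fadd* lost instead. All 4 groups lay above the controls, the middle pair overlapped, and the *Fadd*-deficient embryos were close to the controls. The log2 fold changes were 3.46, 2.07, 2.78 and 0.62 (adjusted p = 6.34e-10, 1.26e-05, 1.16e-07 and 0.0695, the same edgeR test). Loss of *Casp1* lowered *Clec4n* by 1.39 and loss of *Fadd* lowered it by 1.45 (adjusted p = 1.49e-05 and 0.000165). The C362A set took *Clec4n* from 2.40, 2.47 and 3.12 to 20.6, 28.2 and 29.4 in C362A *Mlkl*, to 37.5, 34.4 and 22.3 in C362A *Cflar Mlkl* and to 5.95, 6.77 and 6.09 in C362A *Mlkl Casp1*. The first pair of mutant groups overlapped, and the third lay between them and the controls. The gains were 3.29, 3.56 and 1.24 (adjusted p = 2.51e-08, 1.23e-08 and 0.000527, the same edgeR test), and loss of *Casp1* lowered the gene by 2.05 (adjusted p = 3.62e-06).

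*Clec4n* rose in MEFs too, from 0.474, 0.661 and 0.943 to 3.89, 5.44 and 5.41. No mutant overlapped a control, at a log2 fold change of 2.86 (adjusted p = 0.0104, the same edgeR test). The call was lost without the second control (2.84, adjusted p = 0.116), the second mutant (2.77, adjusted p = 0.0721) or the third mutant (2.78, adjusted p = 0.0525). Its neighbor *Clec4d*, a related lectin from 123262111 to 123275265, rose by 4.72 in D387A *Cflar Mlkl* and by 5.39 in C362A *Mlkl* intestines, and by 1.13 in MEFs (adjusted p = 0.175, not called).

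*Clec4e* encodes Mincle, a C-type lectin for mycobacterial lipids and for a product of dead cells, and lies close by, from 123281789 to 123289870. The D387A set's controls had a single read of it among them. Its RPKM was 0.429, 0.213 and 0.460 in D387A *Cflar Mlkl*, 0.108, 0 and 0.0568 with *Casp1* also lost, and 0.0674, 0.0484 and 0.0672 with *Ifnar1* lost as well. D387A *Cflar Mlkl* embryos lay above all the others, the groups lacking *Casp1* overlapped, and the *Fadd*-deficient embryos, at 0.0352, 0 and 0.0174, overlapped the controls. The ratio of reads to controls was 55.1 (95% interval 9.55 to 2208), 8.12 (1.13 to 356), 9.01 (1.31 to 388) and 2.59 (0.208 to 136) in these 4 groups. Such intervals pool the reads of a group and cover counting error only, not the spread between embryos. The first was called by edgeR at a fitted log2 fold change of 5.37 (adjusted p = 3.87e-05), and the next pair was not (2.67 and 2.81, adjusted p = 0.135 and 0.0599), although limma-voom called the latter at 2.23 (adjusted p = 0.0457). The second was called at 3.25 without the second D387A *Cflar Mlkl Casp1* embryo. Without the second control the controls have 0 reads, and the first and the third fits gave 7.40 and 4.83 (the latter called, adjusted p = 0.0467), which depend on the prior count and are no bound. Loss of *Casp1* changed *Clec4e* by -2.70 (adjusted p = 0.00107, the same edgeR test), or by -3.63 without the first D387A *Cflar Mlkl Casp1* embryo.

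*Clec4e* had 3 reads among the controls of the C362A set and an RPKM of 0.905, 1.02 and 1.08 in C362A *Mlkl*. It was 0.706, 0.484 and 0.479 without *Cflar* and 0.0638, 0.0165 and 0.0649 without *Casp1*. The first group was highest, the second lay below it with no overlap, and the third overlapped the controls. The ratios to controls were 66.5 (95% interval 22.4 to 325), 36.7 (12.2 to 181) and 3.24 (0.808 to 18.6), and the fitted log2 fold changes were 5.89, 5.04 and 1.58 (adjusted p = 7.45e-08, 4.8e-07 and 0.121, the same edgeR test). With *Casp1* lost, *Clec4e* fell by 4.31 (adjusted p = 1.13e-06). Loss of *Cflar* gave -0.85 (adjusted p = 0.0337), and -1.05 with a call without the first C362A *Cflar Mlkl* embryo. MEF controls had 2, 1 and 1 reads and the mutants 10, 11 and 29. The mutants were all higher, and edgeR did not call the fitted 3.69 (adjusted p = 0.129). DESeq2 called 3.80 (adjusted p = 0.0294), and edgeR called 3.68 without the filter on low counts (adjusted p = 0.0127).

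*Acod1* encodes the enzyme that makes itaconate in activated macrophages, and lies on chromosome 14 from 103046977 to 103056573. Its RPKM in the D387A set's controls was 0.0384, 0 and 0. It was 1.71, 1.41 and 2.13 in D387A *Cflar Mlkl*, 0.121, 0.171 and 0.672 with *Casp1* also lost, 0.372, 0.433 and 0.484 with *Ifnar1* lost as well and 0.0506, 0.134 and 0.100 with *Fadd* lost instead. Every embryo of these 4 groups lay above every control, the first group was the highest, and the others overlapped in turn. The ratios of reads to controls were 136 (95% interval 37.5 to 1131), 24.4 (6.43 to 206), 33.2 (8.89 to 279) and 7.35 (1.74 to 65.6). edgeR called the first 3 at fitted log2 fold changes of 6.86, 4.41 and 4.84 (adjusted p = 6.02e-07, 0.00363 and 0.000317) and not the fourth (2.69, adjusted p = 0.13). Without the first control the controls have 0 reads, and the fits gave 9.70, 7.23 and 7.66, which depend on the prior count and are no bound.

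Loss of *Casp1* lowered *Acod1* by 2.46 in the D387A set (adjusted p = 0.000291, the same edgeR test), and by 3.56 without the third D387A *Cflar Mlkl Casp1* embryo. Without that embryo the group's change from controls was 3.30 (adjusted p = 0.0138), and loss of *Ifnar1*, at 0.43 with it, was called at 1.54 (adjusted p = 0.0148). Loss of *Fadd* gave -1.72 (adjusted p = 0.0681), and was called at -2.11 and -2.03 without the first or second D387A *Cflar Mlkl Casp1* embryo and at -1.73 by DESeq2. Without the third it was -0.61 (adjusted p = 0.492, not called).

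*Acod1* rose in the C362A set too. The controls had 1 read among them, against an RPKM of 7.16, 7.63 and 9.70 in C362A *Mlkl*, 1.16, 1.34 and 1.62 in C362A *Cflar Mlkl* and 0.169, 0.365 and 0.343 in C362A *Mlkl Casp1*. No group overlapped another. The ratios to controls were 1695 (95% interval 304 to 66985), 286 (50.9 to 11341) and 60.4 (10.4 to 2429), at fitted log2 fold changes of 10.27, 7.70 and 5.47 (adjusted p = 8.48e-10, 2.89e-08 and 2.8e-05, the same edgeR test). Without the second control the controls have 0 reads and the fits gave 12.11, 9.57 and 7.31, which depend on the prior count and are no bound. With *Casp1* lost, *Acod1* fell by 4.80, and with *Cflar* lost it fell by 2.57 (adjusted p = 6.11e-08 and 4.04e-05). The gains in D387A *Cflar Mlkl* and C362A *Mlkl* differed by -3.34 with a standard error of 2.10, which the interaction test did not call (adjusted p = 0.292). The sets differed in the effect of *Casp1* loss by 2.37 (adjusted p = 0.00599, interaction test), and by 1.26 (adjusted p = 0.105) without the third D387A *Cflar Mlkl Casp1* embryo. MEFs went from 0.0118, 0.0125 and 0 to 0.348, 0.486 and 0.405, with no overlap. The ratio was 45.4 (95% interval 12.1 to 381), with a fitted change of 5.26 (adjusted p = 0.0159, the same edgeR test). Without the first or second control it was no longer called (5.49 and 5.54, adjusted p = 0.0919 and 0.117), nor without the second or the third mutant (5.14 and 5.27, adjusted p = 0.105 and 0.0915).

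**Figure D2:**
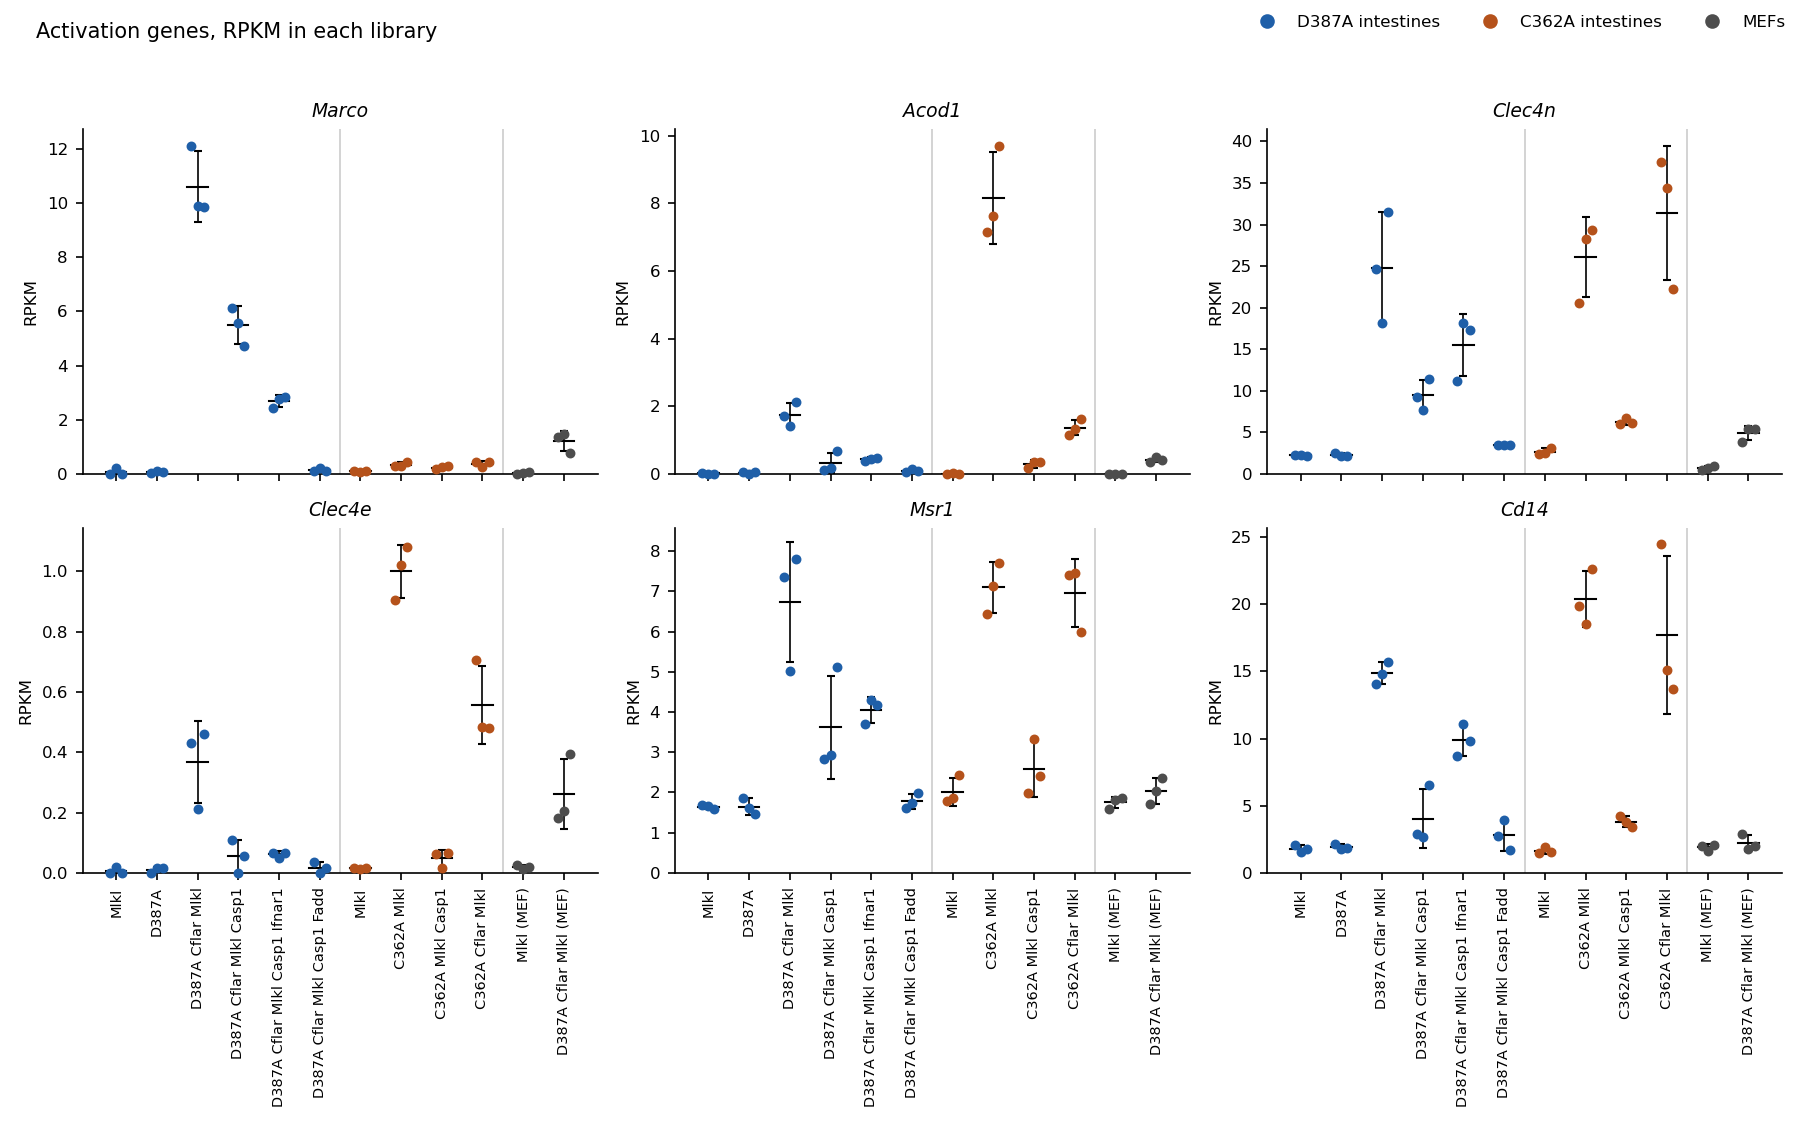
RPKM of the activation genes *Marco*, *Msr1*, *Cd14*, *Clec4n*, *Clec4e* and *Acod1* in every library, by genotype. Each point is 1 library and bars mark group means.

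Calls were counted over the 10 genes in each comparison. A gene was called where edgeR gave a log2 fold change beyond 1 with an adjusted p under 0.05. In D387A *Cflar Mlkl* intestines 8 of the 10 were called higher, as were 9.4% of the 18360 genes tested, and *Csf1r* was called lower, as were 12.8%. The median log2 fold change was 0.97 over the 4 identity genes, 4.41 over the 6 activation genes and -0.01 over all genes tested. For D387A alone edgeR called 0 of the 10, with 0.00545% of all genes called in either direction, and 0 of the 10 had an unadjusted p under 0.05 with edgeR, limma-voom or DESeq2. D387A *Cflar Mlkl Casp1* intestines had 7 of the 10 called higher, beside 2.16% of all genes. With *Ifnar1* also lost, 8 were called higher, beside 6.76%. With *Fadd* lost instead, edgeR called 0 of the 10, beside 3.78% of all genes in either direction. There the unadjusted p was under 0.05 for 2 with edgeR, beside 5711 of the 18360 genes tested, 2 with limma-voom and 4 with DESeq2, and limma-voom and DESeq2 called 0. *Marco* was called in that group when the second control was left out, as given above. These comparisons share their controls.

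Each loss was also measured against the genotype that keeps the gene. Loss of *Casp1* from D387A *Cflar Mlkl* lowered 4 of the 10, *Acod1*, *Clec4n*, *Clec4e* and *Cd14*, beside 4.51% of all genes called lower, and raised *Csf1r*, beside 8.88% called higher. The identity genes *Adgre1* and *Lyz2* hardly moved. Loss of *Ifnar1* raised *Cd14* and lowered *Marco*, beside 3.28% of all genes called higher and 2.03% called lower. Leaving out single libraries moved that count of 2 between 1 and 4, the latter without the third D387A *Cflar Mlkl Casp1* embryo. Loss of *Fadd* lowered 4 of the 10, *Lyz2*, *Marco*, *Clec4n* and *Msr1*, beside 0.877% of all genes. The *Msr1* call was lost under several alternatives, given above.

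In C362A *Mlkl* intestines 8 of the 10 were called higher, as were 10.4% of the 19408 genes tested, and 0 lower, beside 7.55%. By edgeR *Csf1r* and *Adgre1* were the members not called there. The median log2 fold change was 1.44 over the identity genes, 3.46 over the activation genes and 0.02 over all genes. C362A *Cflar Mlkl* intestines had 8 called higher, beside 13.4% of all genes, and *Csf1r* lower, beside 11.2%. In C362A *Mlkl Casp1* intestines 4 were higher, beside 6.79%, all of them activation genes. Loss of *Casp1* from C362A *Mlkl* lowered 7 of the 10, beside 5.72%. Loss of *Cflar* lowered *Csf1r* and *Acod1*, that is 2 of the 10, beside 4.62%. In the MEFs 4 of the 10 were called higher, *Lyz2*, *Marco*, *Acod1* and *Clec4n*, beside 0.0711% or 11 of the 15465 genes tested. The other 7 genes called in MEFs were *Mmp9*, *C3*, *Cxcl10*, *Serpina3g*, *Nfkbie*, *Relb* and *Nfkbia*. Leaving out single MEF libraries moved the count of members as far down as 1.

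**Figure D3:**
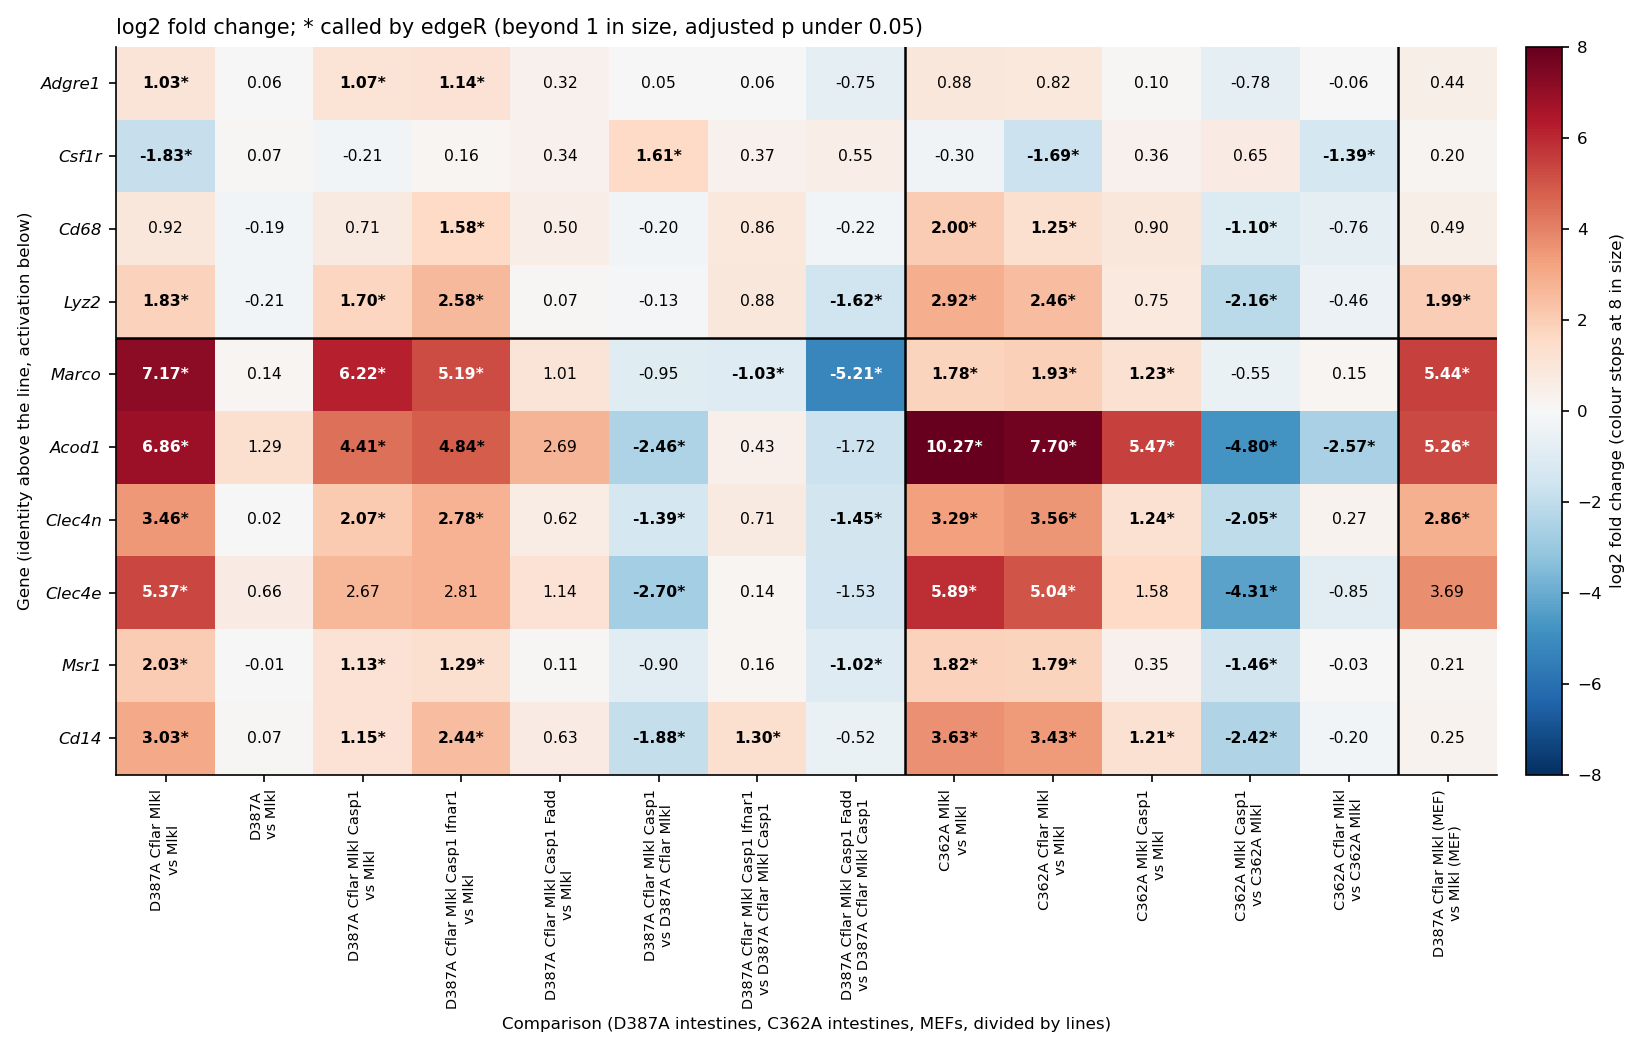
Log2 fold change of each of the 10 genes in each comparison. Stars mark genes called by edgeR.

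Differences between the sets were tested with interaction terms. The effect in D387A *Cflar Mlkl* intestines differed from that in C362A *Mlkl* intestines for 3 of the 10, beside 7.46% of the 19643 genes tested. These were *Csf1r* (-1.53, adjusted p = 0.000229), *Lyz2* (-1.08, adjusted p = 0.00265) and *Marco*. With limma-voom *Cd68* was also called (-1.13, adjusted p = 0.049), and edgeR had it at -1.09 (adjusted p = 0.0666). These genotypes differ by *Cflar* as well. In a test added after seeing the data, the effect in D387A *Cflar Mlkl* intestines was set against that in C362A *Cflar Mlkl* intestines, and 1 of the 10 differed, *Marco* (5.24, adjusted p = 0.00778), beside 0.0764% of the 19643 genes. There *Csf1r* differed by -0.14 and *Lyz2* by -0.63 (adjusted p = 0.806 and 0.151, not called). The *Marco* differences in both tests rest on the second control of the D387A set, and neither was fitted without it. The effect of *Casp1* loss differed between the sets for 2 of the 10, *Lyz2* and *Acod1*, beside 5.73% of all genes, and for *Lyz2* alone without the third D387A *Cflar Mlkl Casp1* embryo. The effect of D387A *Cflar Mlkl* in intestines differed from that in MEFs for 3 of the 10, beside 15.3% of the 18862 genes tested. These were *Csf1r* (-2.01, adjusted p = 1.03e-05), *Msr1* (1.84, adjusted p = 2e-05) and *Cd14* (2.81, adjusted p = 1.53e-05). *Marco* differed by 1.76 between tissues (adjusted p = 0.335), and limma-voom called it at 2.75.

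*Csf1r* did not follow the other identity genes in these intestines. Over the 18 intestines of the D387A set and the 12 of the C362A set, the correlation (r) of *Adgre1* with *Csf1r* was -0.38 and -0.64. With *Lyz2* it was 0.92 and 0.95, and with *Clec4n* it was 0.90 and 0.94. No p is given, because libraries of a genotype move together. *Csf1r* instead followed *Fabp2*, a fatty-acid carrier of absorptive epithelium, with r of 0.93 and 0.96. That gene was picked from 9 epithelial genes, whose median r with *Csf1r* was 0.23 and 0.17, and *Krt19* went the other way (-0.73 and -0.82). *Fabp2* stood at 6579, 6418 and 6427 in the D387A set's controls, 133, 81.5 and 117 in D387A *Cflar Mlkl* and 2614, 2890.4 and 2840.2 in D387A *Cflar Mlkl Casp1* intestines. *Csf1r* likewise was lowest in the group lowest in *Fabp2*. *Csf1r* also followed *Selenop*, from the list of tissue-resident macrophage genes (0.91 and 0.95). The 8 genes of that list had a median r of 0.16 and 0.02 with it, and *Siglec1* went the other way (-0.72 and -0.35). The genes most like *Csf1r* in both sets were *Paqr9*, *Cidec*, *St3gal5*, *Apoa1* and *Lrrc10b*, a search made after its values had been seen. Which cells carried the *Csf1r* reads was not tested.

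**Figure D4:**
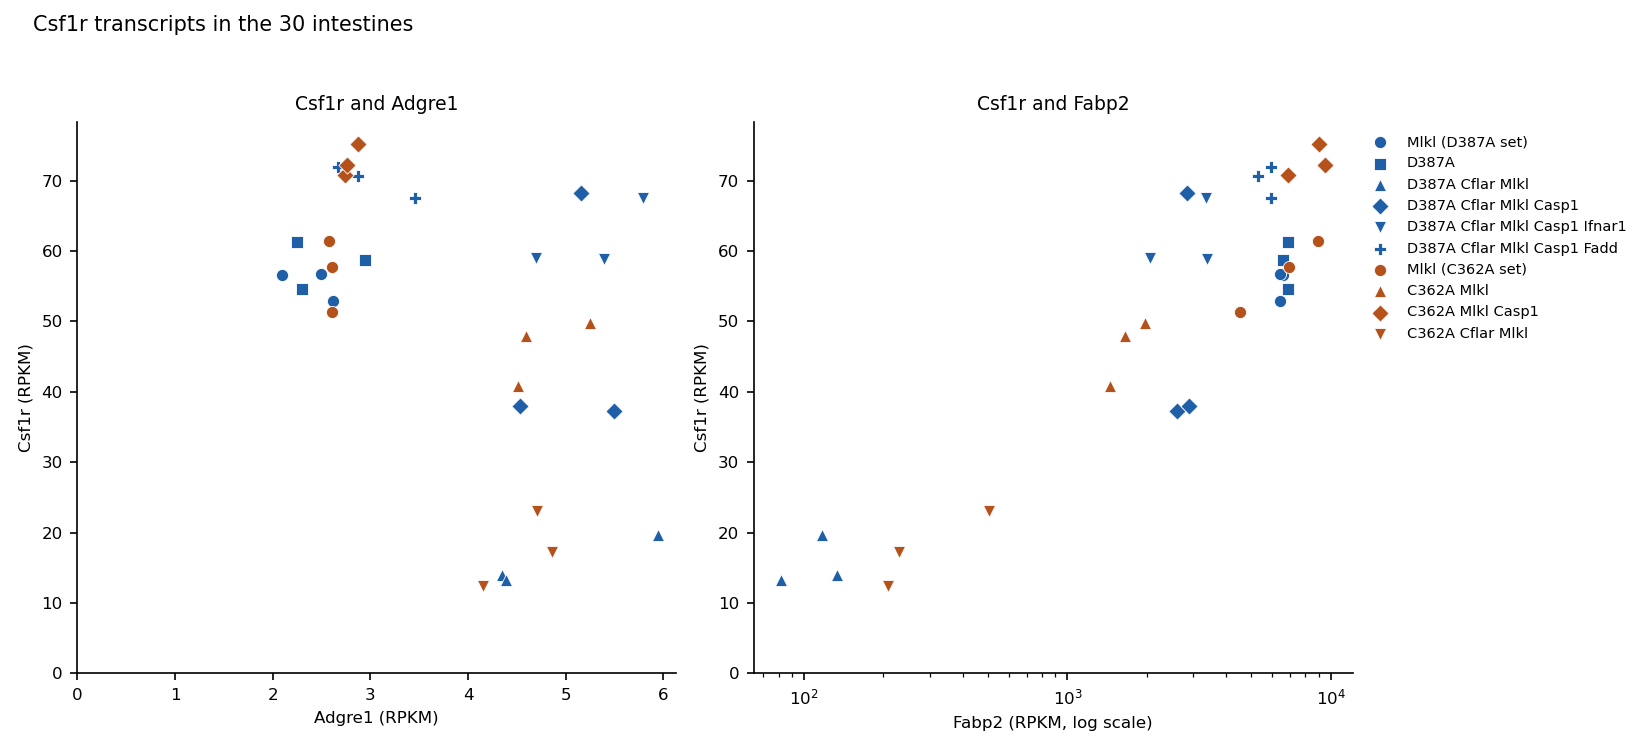
*Csf1r* against *Adgre1* and against *Fabp2* in the 30 intestines, in RPKM. Each point is 1 embryo.

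The genes most like *Adgre1* were *Sirpa* (0.92 and 0.94), *Igsf6* (0.92 and 0.94), *Fpr2* (0.91 and 0.92), *Fgr* (0.91 and 0.94) and *Parp8* (0.91 and 0.95), out of 18196 genes tested in both sets. Among those most like *Acod1* were *Cxcl9* (0.97 and 0.98), *Ms4a6d* (0.96 and 0.97), *Slc15a3* (0.98 and 0.96) and *Tnfaip2* (0.98 and 0.95). Over a list of 22 further macrophage genes, called the core list, the median r was 0.71 and 0.86 with *Adgre1* and -0.50 and -0.49 with *Csf1r*.

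The core list moved less evenly than the activation genes. The counts below stand beside 9.4% of all genes called higher and 12.8% lower in D387A *Cflar Mlkl*, and 10.4% and 7.55% in C362A *Mlkl*. In D387A *Cflar Mlkl* intestines 7 of its 22 genes were called higher, such as *Itgb2* (2.28) and *Itgam* (2.11), and 2 lower, among them *Mertk* (-2.27), with a median log2 fold change of 0.86. In C362A *Mlkl* intestines 17 were higher, led by *Spi1* (2.68) and *Cd53* (2.65), and *Mertk* lower, with a median of 1.94. The summed RPKM of the list was 407, 384 and 371 in the D387A set's controls and 525, 492 and 669 in D387A *Cflar Mlkl*. It was 302, 399 and 378 in the C362A set's controls and 960.1, 938 and 1006 in C362A *Mlkl*. *Ctss*, a lysosomal protease, was the most abundant of the list. Of 8 genes of tissue-resident macrophages tested, 1 rose and 3 fell in D387A *Cflar Mlkl* (median -0.40), and 3 rose and 3 fell in C362A *Mlkl* (median -0.62). *Siglec1* rose by 2.12 and 2.27 in the same genotypes, whereas *Selenop* fell by 3.39 in the first. Of 10 monocyte genes 7 and 8 rose (medians 1.39 and 2.05), with *Hp* at 3.90 and 4.01.

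Genes that work with the activation genes were counted in the same way. Of 9 genes of C-type lectin signaling 5 were called higher in D387A *Cflar Mlkl* and 6 in C362A *Mlkl* intestines (medians 1.03 and 2.07), among them the lectin *Clec7a* (2.15 and 4.88) and the adaptor *Fcer1g* (1.14 and 2.19), which is also in the core list. Of 8 genes of the colony-stimulating factor axis 5 rose and 1 fell in both genotypes (medians 1.52 and 2.04), and *Csf2rb* rose by 2.72 and 2.87. Of 9 genes of lipopolysaccharide recognition 3 and 5 rose (medians 0.68 and 1.51), with *Tlr4* at 1.54 and 2.33. Other scavenger receptors went both ways, 2 of 11 higher in both genotypes with 1 and 2 lower (medians 0.16 and -0.17), and *Cd163*, which is in the resident list too, fell by 2.01 in C362A *Mlkl*. Of 20 further activation genes, 17 of 19 tested rose in D387A *Cflar Mlkl* (median 4.20) and 18 of 20 in C362A *Mlkl* (median 4.86, or 4.40 with *Il12b*, which had 0 control reads, at its floor). *Saa3* rose by 8.87 and 8.14 and *Nos2* by 7.57 and 6.38. Genes of alternative activation rose too, 5 of 7 and 9 of 9 (medians 2.60 and 3.06).

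Under loss of *Casp1* 4.51% of all genes were called lower and 8.88% higher in the D387A set, and 5.72% lower in the C362A set. Loss of *Casp1* lowered 11 of the 19 activation genes and 7 of the 10 monocyte genes in the D387A set (medians -1.10 and -1.38), where the core list had 3 higher and 3 lower (median -0.55). In the C362A set it lowered 14 of 20, 9 of 10 and 11 of 22 (medians -1.85, -1.42 and -1.01). It lowered 6 of 11 neutrophil genes in the D387A set and 8 of 11 in the C362A set (medians -1.71 and -3.16), and raised 6 of 6 erythroid genes in the D387A set (median 1.94).

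In MEFs edgeR called 0 of the 22 core genes, beside 0.0711% of all genes, with a median of 0.28, and 8 of them had an unadjusted p under 0.05 with edgeR (1001 of the 15465 genes tested did), 8 with limma-voom, which also called 0, and 7 with DESeq2, which called 3. The summed RPKM of the list was 77.6, 62.9 and 53.6 in control MEFs and 66.9, 78.2 and 91.8 in mutant MEFs, which overlap. Whether macrophages were present in the MEF cultures was not tested.

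Genes of other cells changed in the same intestines. Of 11 neutrophil genes 7 were called higher and 1 lower in D387A *Cflar Mlkl*, and 8 higher in C362A *Mlkl* (medians 2.39 and 4.04), with *Ly6g* at 4.20 and 4.58. Their summed RPKM was 9.55, 39.4 and 16.0 in the D387A set's controls, 92.3, 69.6 and 247 in D387A *Cflar Mlkl* and 17.4, 23.2 and 51.4 with *Casp1* also lost. It was 20.1, 23.1 and 54.8 in the C362A set's controls and 593, 705 and 733 in C362A *Mlkl*, where *S100a9* was the most abundant. *Elane*, which marks neutrophil precursors, had 0 reads in D387A *Cflar Mlkl* intestines. It did not pass the filter on low counts in either intestine set, so its change from controls was not tested. Paneth-cell genes rose in 4 of 5 and 6 of 6 (medians 3.09 and 2.58). Dendritic-cell genes rose in 2 of 6 and 4 of 7, with 1 lower in each, mast-cell genes rose in 3 of 5 and 2 of 6, and genes of T and NK cells in 1 of 4 and 5 of 6. Of 9 epithelial genes 2 rose and *Fabp2* fell by 5.87 in D387A *Cflar Mlkl*, and 1 rose and *Fabp2* fell by 2.01 in C362A *Mlkl*. The summed RPKM of these epithelial genes went from 8779, 8494 and 8382 to 2822, 2789.6 and 2669 in the former, and *Fabp2* made up the drop in the sum. The 8 fibroblast genes had medians of 0.42 and -0.02, those of endothelium 0.06 and -0.23 and those of smooth muscle 0.63 and 0.12, and 4 of the 6 erythroid genes fell in C362A *Mlkl* (median -1.11). Whether macrophages, monocytes or neutrophils carried the added reads of *Lyz2*, *Clec4e*, *Clec4n* and *Acod1* was not tested.

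Promoters were read for *Acod1*, *Marco*, *Clec4e*, *Cd68* and *Lyz2*, which all rose in C362A *Mlkl* intestines, and the 4 with a match are shown. *Adgre1*, *Clec4n* and *Msr1* have no entry in the promoter table. Those of *Cd14* and *Csf1r* were not searched. Each sequence shown is from RefSeq on GRCm38.p6, up to 250 bases before the transcription start and trimmed where an annotated exon lies, read in the direction of the gene. Sites searched on both strands were GGG and TTTCC with any 2 bases between (NF-kB), TGACTCA (AP-1), GAGGAA (PU.1), GAAA and GAAA with any 2 bases between (interferon-stimulated response element) and TTGC and AA with any 2 bases between (C/EBP). Matches are in capitals. *Acod1* is on the plus strand at chr14:103046762-103046976, *Marco* on the minus strand at chr1:120505025-120505274, *Clec4e* on the minus strand at chr6:123289872-123290121 and *Cd68* on the minus strand at chr11:69666171-69666420.
Acod1: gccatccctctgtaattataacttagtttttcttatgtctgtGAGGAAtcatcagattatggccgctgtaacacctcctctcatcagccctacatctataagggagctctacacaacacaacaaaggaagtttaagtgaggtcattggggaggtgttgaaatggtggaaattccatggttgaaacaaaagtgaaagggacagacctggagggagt
Marco: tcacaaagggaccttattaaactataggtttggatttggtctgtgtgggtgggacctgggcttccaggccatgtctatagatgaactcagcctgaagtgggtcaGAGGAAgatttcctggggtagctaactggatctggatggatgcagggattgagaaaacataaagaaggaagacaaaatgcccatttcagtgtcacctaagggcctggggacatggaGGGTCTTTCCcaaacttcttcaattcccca
Clec4e: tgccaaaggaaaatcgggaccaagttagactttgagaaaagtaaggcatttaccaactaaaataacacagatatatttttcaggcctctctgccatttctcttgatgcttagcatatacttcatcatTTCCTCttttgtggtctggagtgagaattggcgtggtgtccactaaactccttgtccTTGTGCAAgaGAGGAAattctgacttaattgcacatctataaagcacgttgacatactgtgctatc
Cd68: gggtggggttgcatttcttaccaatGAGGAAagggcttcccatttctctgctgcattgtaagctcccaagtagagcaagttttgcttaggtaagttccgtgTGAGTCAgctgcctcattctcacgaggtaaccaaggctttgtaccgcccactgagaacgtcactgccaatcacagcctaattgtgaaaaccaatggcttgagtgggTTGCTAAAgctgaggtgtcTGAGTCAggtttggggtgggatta

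Positions count from the RefSeq start, which for *Acod1* lies 35 bases beyond the end of the sequence shown. *Acod1* had a PU.1 site at -208. *Marco* had an NF-kB site at -30 and a PU.1 site at -146. *Clec4e* had PU.1 sites at -123 and -56 and a C/EBP site at -66. *Cd68* had a PU.1 site at -225, AP-1 sites at -149 and -24 and a C/EBP site at -43. *Lyz2* matched none. Among 32851 promoters the share with a match was 1.41% for NF-kB, 4.46% for AP-1, 23.3% for PU.1, 2.98% for the interferon-stimulated response element and 9.56% for C/EBP. A match describes the sequence, and whether any protein binds there was not tested.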

How the data were processed

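Reads were aligned by the authors to GRCm38 with GSNAP, and only uniquely mapped reads were kept. The authors deposited a count of exonic reads per gene for each library. The program that counted them, its annotation and its use of strand are not given. The deposited gene width, in bases and the same in every file, was used to scale by length. The deposited RPKM was read only to see how it was made: the sum over genes was 75.6% to 88.6% of the library total that the authors divided by. The kit and instrument named in the sample labels differ from those in the published methods.

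RPKM in this report was computed from the counts, the deposited width and library sizes scaled by TMM. Each set (18 and 12 intestines, 6 MEF libraries) was fitted apart in R 4.3.3 with edgeR 4.0.16, quasi-likelihood, after filterByExpr (count of at least 10, total of at least 15) and with a prior count of 0.125. Genes tested were 18360, 19408 and 15465, at a biological coefficient of variation of 0.132, 0.162 and 0.132. A gene was called at a log2 fold change beyond 1 with a Benjamini-Hochberg adjusted p under 0.05. Alternatives used limma-voom 3.58.1 and DESeq2 1.42.0. The scripts were tested on simulated data. Interaction terms were fitted over 30 intestines, or over the D387A set with the MEFs (24 libraries). Ratios against 1 to 3 control reads have exact 95% intervals on pooled reads, which cover counting error only, and floors are 3 reads over a group. Likeness used log2(CPM + 0.5).

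The members and the lists were chosen with earlier results of these data known. A list or member gene was tested where it passed the filter of its set. Deviations from group means were correlated between same-numbered libraries. The r was 0.11, 0.22 and 0.20 for D387A alone and its controls, and 0.27, 0.31 and 0.18 for the MEFs. In the other comparisons r lay between -0.44 and 0.29. These values are small and do not show that same-numbered libraries are pairs. A fit with replicate number as a block is among the alternatives.

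All groups have 3 libraries. The controls of each set serve several comparisons. Genes with few reads, such as *Clec4e* and *Acod1*, have wide intervals. The labels do not give litter, sex or day of preparation.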

Additional observations from a re-analysis of the deposited data

Results flagged for a closer look

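Effects differed between sets or tissues for several of the 10 genes, by edgeR's interaction test with Benjamini-Hochberg adjustment. Between D387A *Cflar Mlkl* and C362A *Mlkl* intestines, each against its own controls, *Csf1r* differed by -1.53, *Lyz2* by -1.08 and *Marco* by 5.40. These genotypes differ by *Cflar* too. Between D387A *Cflar Mlkl* and C362A *Cflar Mlkl* intestines, a test added after seeing the data, *Marco* differed by 5.24. Both *Marco* differences rest on the second control of the D387A set, the only one there with reads of the gene. For the loss of *Casp1*, from D387A *Cflar Mlkl* against from C362A *Mlkl*, which keeps *Cflar*, *Lyz2* differed by 2.06 and *Acod1* by 2.37. Without the third D387A *Cflar Mlkl Casp1* embryo *Acod1* differed by 1.26 and was not called. Between intestines and MEFs of the D387A *Cflar Mlkl* genotype, *Csf1r* differed by -2.01, *Msr1* by 1.84 and *Cd14* by 2.81. What lies behind these differences was not tested.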

How the results depend on the processing

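The number of the 10 genes called changed by more than 1.5 times in a few comparisons, and the cause was not tested except where fewer genes were tested. For the loss of *Casp1* in the D387A set it went from 5 to 3 when a mean of at least 50 reads was asked for, because *Acod1* and *Clec4e* then were not tested. For the loss of *Ifnar1* it went from 2 to 1 with only the compared groups in the fit (*Cd14*, adjusted p = 0.0516 by edgeR) and ranged from 1 to 4 when single libraries were left out. For D387A *Cflar Mlkl Casp1 Fadd* against controls, leaving out single libraries gave 0 to 1. For the MEFs it went from 4 to 2 at a mean of at least 50 reads, where *Marco* and *Acod1* were not tested, and ranged from 1 to 4 when single libraries were left out. For the difference between the sets in the effect of *Casp1* loss it went from 2 to 1 without the third D387A *Cflar Mlkl Casp1* embryo, an alternative chosen after seeing the data.

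With replicate number as a block, *Clec4e* was called in D387A *Cflar Mlkl Casp1 Ifnar1* intestines (2.83, adjusted p = 0.0467 by edgeR) and *Msr1* lost its call for the loss of *Fadd* (-1.0), and the block changed no other call. Of the calls and non-calls under all alternatives, 1944 stayed, 36 calls were lost, 27 were gained and 0 reversed. Some log2 fold changes that were not called changed sign. In D387A *Cflar Mlkl Casp1* intestines *Cd68* went from 0.71 to -0.13 without the third embryo. Of the mean RPKM values 104 stayed and 16 moved with raw library totals. The search for genes like *Csf1r* and the test of D387A *Cflar Mlkl* against C362A *Cflar Mlkl* effects were also added after seeing the data.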
